A study of Mus musculus with 12 samples.

Results

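The genes described here mark pericytes and vascular smooth muscle cells, together called mural cells, which wrap the endothelium of blood vessels. They were chosen by symbol from the deposited count table: Acta2, Tagln, Myl9, Myh11, Cnn1, Rgs5, Pdgfrb, Cspg4, Des and Kcnj8. All 10 were among the 35976 genes listed, and 9 of the 10 had at least 1 count, as did 24484 genes of the table. Retinal mRNA had been sequenced from C57BL/6 pups (WT) and from mice labelled Casp1 KO, each in normoxia and after oxygen-induced retinopathy (OIR), with 3 libraries in each of the 4 groups. WT pups of the OIR group breathed 75% oxygen from postnatal day (P) 7 to P12, were then kept in room air, and gave their retinas at P15. WT controls of the same age had stayed in room air. The labels place both OIR groups, WT and Casp1 KO, at 3 days after OIR. For the Casp1 KO label, the sources used here state neither the age of the mice, nor the oxygen level, nor the allele. How many animals a library holds is also not stated, so the spread between these libraries may be technical. The edgeR test pooled its estimate of that spread over genes. A small p-value can thus stand beside a wide spread in that gene's own libraries.

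Pericytes sit on capillaries and share their basement membrane, whereas smooth muscle cells form the contractile coat of arterioles and arteries. The retina is known for its dense pericyte coverage. Endothelial cells attract pericytes by secreting platelet-derived growth factor B, which binds the receptor encoded by Pdgfrb. Contractile cells build filaments of smooth muscle actin (Acta2) and smooth muscle myosin heavy chain (Myh11) with its regulatory light chain (Myl9), bound by transgelin (Tagln) and calponin 1 (Cnn1). Des encodes desmin, the intermediate filament of muscle and many pericytes. Rgs5, a brake on G protein signalling, Cspg4, the NG2 proteoglycan, and Kcnj8, a subunit of an ATP-sensitive potassium channel, are widely used pericyte markers. In bulk RNA, fewer cells of a type and less RNA per cell cannot be told apart.

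Libraries held 3391203 to 22815830 counts, and WT normoxia replicate 2 was the largest, with 4.03 times the counts of the next. A count of 0 in a library allows up to 3 counts, or 0.131 to 0.885 CPM, a unit that divides counts by the size of the library, for counting error alone. Replicates of a group differed by more than sampling noise, and WT OIR replicate 3 stood apart from replicates 1 and 2 of its group, at a chi-square of 14.03 and 13.2 for each degree of freedom, against 3.48 to 9.34 for all other pairs. Reads of Casp1 itself ran against the label: 126 fell in the 6 Casp1 KO libraries and 7 in the 6 of WT. KO below therefore stands for the libraries labelled Casp1 KO, and every direction drawn from that label carries this limit.

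Contractile genes are classic targets of serum response factor (SRF), which binds the CArG box, a run of 10 bases with CC at one end, GG at the other and 6 bases of A or T between. The box was searched for in RefSeq promoter windows of GRCm38.p6, from 250 bases before to 50 bases after the start of transcription, and reads the same way on both strands. Of 32851 windows, 1.63% held a box with all 6 core bases A or T, and 9.98% held one with at least 5 of 6. Among the 7 genes of this set with a window (Acta2, Myl9, Cnn1, Rgs5, Cspg4, Des and Kcnj8), only those of Acta2 and Myl9 held one. Acta2 had 2 boxes with 5 of 6, whose first bases lay 84 and 34 bases before the start. Myl9 had 1 with 6 of 6 and 1 with 5 of 6, at 161 and 99 bases before it. Both promoters are shown because these genes head the results below. Their 250 bases upstream of the start are printed 5′ to 3′ on the strand of the gene, with the boxes in capitals. The Acta2 sequence is chr19:34255374-34255623 on the minus strand, and the Myl9 sequence is chr2:156775214-156775463 on the plus strand. These starts are those of RefSeq, and the GENCODE annotation used below differs. There the Acta2 gene reaches 34255590, so both of its boxes lie inside the gene. The Myl9 gene starts there at 156775420, within the printed bases but after both boxes.
Acta2: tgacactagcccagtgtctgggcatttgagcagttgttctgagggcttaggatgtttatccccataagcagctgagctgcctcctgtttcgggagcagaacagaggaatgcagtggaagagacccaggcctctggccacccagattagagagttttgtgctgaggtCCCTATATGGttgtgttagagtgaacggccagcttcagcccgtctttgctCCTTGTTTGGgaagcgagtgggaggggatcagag
Myl9: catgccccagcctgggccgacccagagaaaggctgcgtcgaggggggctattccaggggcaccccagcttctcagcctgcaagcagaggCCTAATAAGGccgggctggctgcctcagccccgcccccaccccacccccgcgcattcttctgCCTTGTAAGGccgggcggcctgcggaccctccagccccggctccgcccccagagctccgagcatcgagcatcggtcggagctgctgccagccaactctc
These matches describe the letters of the windows and not binding.

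The genes lie apart in the mouse genome, and their reads come from the 3' end of the transcript in the QuantSeq libraries used. In the GENCODE vM21 annotation of GRCm38, all 10 are protein coding. Acta2 is on chromosome 19 from 34241090 to 34255590, minus strand, with 9 exons in its longest form. Myl9 is on chromosome 2 from 156775420 to 156781658, plus strand, with 4 exons. Myh11 is on chromosome 16 from 14194535 to 14291372, minus strand, with 41 exons. Rgs5 (from 169655501 to 169695813) and Des (from 75360329 to 75368579) are both on the plus strand of chromosome 1, with 5 and 9 exons. Tagln (from 45929619 to 45936058, minus strand), Cnn1 (from 22099216 to 22109630, plus strand) and Cspg4 (from 56865033 to 56899870, plus strand) share chromosome 9. Pdgfrb is on chromosome 18 from 61045150 to 61085061, plus strand, and Kcnj8 on chromosome 6 from 142564837 to 142571614, minus strand. For 8 of the 10 no annotated gene overlapped the last 500 bases of the transcript. In Des 44.0% of those bases were overlapped by the antisense gene Gm15179, and in Tagln 115 of the 500 by Pcsk7 and Gm48529 on the opposite strand. The strand setting of the counting is not given in the sources used here, so counts of Des and Tagln are uncertain.

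The first question was whether OIR altered mural cell genes in the WT retina. Acta2 rose 10.7-fold, and it was the 1 gene called of the 9 with counts, at an adjusted p under 0.05 in edgeR's quasi-likelihood test. Of all 22853 genes tested, 3.88% were called, and 1.58% were called as higher. The median log2 fold change was 0.99 over the 9 genes with counts, 0.88 over the 8 of them with more than 3 counts in a library of each group, and 0.04 over all genes tested. DESeq2 also called 1 of the 9, and its share of all genes is not given here. None of the pericyte markers Rgs5, Pdgfrb, Cspg4 and Kcnj8 was called in WT, and none had an unadjusted p under 0.05.

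Acta2 read 1.24, 1.78 and 4.57 CPM in WT normoxia replicates 1, 2 and 3, and 36.7, 28.7 and 10.5 CPM in WT OIR replicates 1, 2 and 3. All 3 OIR libraries lay above all 3 normoxia libraries, and replicate 3, the library that stood apart, was the lowest of the OIR group. Groups without overlap and higher in OIR made up 8.53% of all genes tested. On the log2 scale Acta2 changed by 3.42 ± 0.36 (SE, n = 3 and 3), with an adjusted p of 3.94e-18 in edgeR's quasi-likelihood test. Both the SE and the p rest on the spread pooled over genes, not on that of Acta2 alone. It ranged from 3.04 to 3.96 when each library was left out in turn, and was called in all 6 such fits.

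Myl9 came next among the contractile genes by reads, with 357 counts over the 6 WT libraries against 432 for Acta2. It read 5.68, 4.67 and 10.4 CPM in WT normoxia and 12.98, 11.2 and 10.5 CPM in WT OIR. The groups did not overlap, although the highest normoxia library nearly met the lowest OIR library. Its log2 fold change of 0.77 ± 0.38 (SE) had a p of 0.0432 before and 0.368 after adjustment (edgeR).

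Myh11 read 0.89, 1.38 and 1.52 CPM in WT normoxia and 7.59, 2.95 and 0.36 CPM in WT OIR. Replicates 1 and 2 of OIR exceeded all normoxia libraries and replicate 3 lay under all of them, so the groups overlapped. Its fitted change was 1.48 ± 0.83 (SE) on the log2 scale, adjusted p = 0.468 (edgeR). It fell to 0.37 without WT OIR replicate 1 and was 2.02 without WT OIR replicate 3.

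Des gave 0, 6 and 2 counts in WT normoxia and 13, 13 and 0 in WT OIR. Again replicates 1 and 2 of OIR were above normoxia and replicate 3 was not. Its log2 fold change of 2.89 ± 1.55 (SE) had an adjusted p of 0.432 (edgeR). Cnn1 gave 3, 0 and 1 counts in WT normoxia and 14, 2 and 0 in WT OIR, so a single library carried most of its reads in OIR. No fold is given for Cnn1, since no normoxia library exceeded 3 counts, and its adjusted p was 0.611 (edgeR). Tagln was listed at 0 in all 12 libraries. Over the 75020742 counts of the series, counting error alone allows up to 0.0400 CPM. Reads lost in counting, where its end overlaps Pcsk7 and Gm48529, are not covered, so this value does not bound the level of Tagln.

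Of the pericyte markers, Rgs5 had 4616 counts over the 6 WT libraries, while Cspg4, Kcnj8 and Pdgfrb had 236, 140 and 134. Rgs5 read 99.1, 83.2 and 109 CPM in WT normoxia and 111, 151 and 75.1 CPM in WT OIR. The OIR libraries spanned those of normoxia on both sides, and the log2 fold change was 0.20 ± 0.15 (SE), adjusted p = 0.577 (edgeR). Its sign depended on single libraries: it was -0.07 without WT OIR replicate 2, and 0.43 without WT OIR replicate 3, where the adjusted p became 0.0278.

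Pdgfrb, the receptor through which pericytes are recruited, read 1.78, 2.23 and 2.17 CPM in WT normoxia and 2.69, 4.42 and 5.27 CPM in WT OIR. The groups did not overlap, and the log2 fold change of 0.99 ± 0.69 (SE) had an adjusted p of 0.561 (edgeR). Cspg4 read 5.68, 4.18 and 1.96 CPM in WT normoxia and 6.61, 9.02 and 4.54 CPM in WT OIR. These groups overlapped, with a log2 fold change of 0.74 ± 0.50 (SE) and an adjusted p of 0.553. Kcnj8 read 4.09, 3.74 and 1.09 CPM in WT normoxia and 0.98, 3.13 and 1.27 CPM in WT OIR. It was the single gene of this set with a fitted value below 0, -0.74 ± 0.77 (SE) on the log2 scale, and its adjusted p was 0.673.

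**Figure D1:**
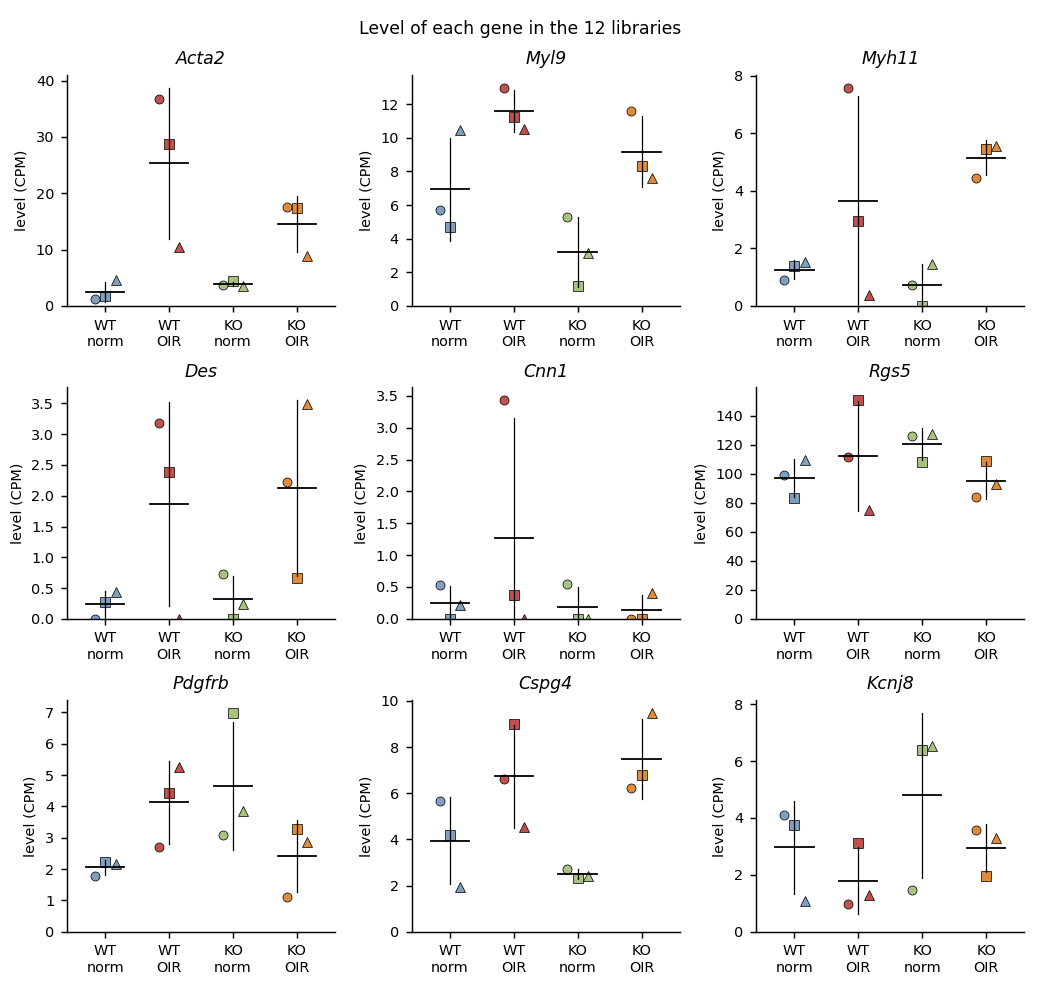
Level in CPM (y axis, from 0, a separate scale for each gene) of the 9 genes with counts in the 4 groups (x axis; norm, normoxia; KO, labelled Casp1 KO). Circles, squares and triangles are replicates 1, 2 and 3, horizontal bars are means and vertical lines are SD over 3 libraries, cut at 0. Acta2 in OIR lay above normoxia in both genotypes, from 8.84 to 36.7 CPM against 1.24 to 4.57 CPM, while Rgs5 ranged from 75.1 to 151 CPM with groups that overlapped in WT.

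The same comparison in the libraries labelled Casp1 KO called 3 of the 9 genes with counts, Acta2, Myl9 and Myh11, all of them higher in OIR and all contractile. Of all 22387 genes tested there, 4.64% were called, and 2.61% were called as higher. The median log2 fold change was 1.47 over the 9 genes with counts, 1.53 over the 8 without Cnn1, and close to 0 over all genes. Those libraries are a separate set of 6, and share none with the WT comparison.

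Acta2 read 3.65, 4.36 and 3.62 CPM in KO normoxia and 17.6, 17.3 and 8.84 CPM in KO OIR. The groups did not overlap, as was true in this direction for 8.56% of all genes. Acta2 rose by 1.92 ± 0.39 on the log2 scale (SE, n = 3 and 3), or 3.80-fold, with an adjusted p of 7.31e-05 in edgeR's quasi-likelihood test. It ranged from 1.76 to 2.17 with each library left out, and was called in all 6 such fits.

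Myl9 read 5.29, 1.16 and 3.14 CPM in KO normoxia and 11.6, 8.32 and 7.61 CPM in KO OIR. The groups did not overlap, and the low KO normoxia replicate 2 rested on 4 counts. Myl9 rose by 1.47 ± 0.46 (SE) on the log2 scale, or 2.77-fold, with an adjusted p of 0.0356 (edgeR). The call was lost without KO normoxia replicate 2 (1.10, adjusted p = 0.241), KO normoxia replicate 3 (0.0991), KO OIR replicate 1 (0.211) or KO OIR replicate 2 (0.0684), and with DESeq2 (0.100).

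Myh11 gave 4, 0 and 6 counts in KO normoxia and 20, 25 and 27 in KO OIR, or 0.73, 0 and 1.45 CPM against 4.45, 5.47 and 5.55 CPM. All OIR libraries lay above all normoxia libraries, in contrast to the WT libraries, where OIR replicate 3 was low. Myh11 rose by 2.75 ± 0.76 (SE) on the log2 scale, or 6.73-fold, with an adjusted p of 0.0109 (edgeR). The call was lost without KO normoxia replicate 2 (adjusted p = 0.0726), KO OIR replicate 2 (0.0580) or KO OIR replicate 3 (0.0580).

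Des gave 4, 0 and 1 counts in KO normoxia and 10, 3 and 17 in KO OIR, and the groups overlapped. Its log2 fold change of 2.52 ± 1.25 (SE) had a p of 0.0442 before and 0.346 after adjustment (edgeR). Cnn1 gave at most 3 counts in any KO library, so no fold is given.

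Among the pericyte markers, Cspg4 read 2.73, 2.32 and 2.41 CPM in KO normoxia and 6.23, 6.79 and 9.46 CPM in KO OIR. The groups did not overlap and the log2 fold change was 1.58 ± 0.53 (SE), but the adjusted p of 0.0555 missed the threshold (edgeR). NG2 is also made by oligodendrocyte precursors. Their 5 markers (Pdgfra, Olig1, Olig2, Sox10 and Gpr17) summed to 23.7, 16.3 and 15.2 CPM in KO normoxia and 26.9, 26.3 and 15.2 CPM in KO OIR. Of the 5, 4 had a log2 fold change above 0, among them Gpr17, with at most 3 counts in any of these libraries. Of the markers 0 were called, against 4.64% of all genes, and 0 had an unadjusted p under 0.05, against 13.6%. The part of these precursors in the Cspg4 value was not tested.

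Rgs5 read 126, 108 and 128 CPM in KO normoxia and 84.0, 109 and 93.0 CPM in KO OIR. The groups met at the highest OIR and the lowest normoxia library. Its log2 fold change was -0.33 ± 0.12 (SE), with a p of 0.00477 before and 0.0842 after adjustment (edgeR), and it was called without KO normoxia replicate 2 (0.0473) or KO OIR replicate 2 (0.0141).

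Pdgfrb read 3.10, 6.97 and 3.86 CPM in KO normoxia and 1.11, 3.28 and 2.88 CPM in KO OIR, with a log2 fold change of -0.90 ± 0.64 (SE) and an adjusted p of 0.562. Kcnj8 read 1.46, 6.39 and 6.52 CPM in KO normoxia and 3.56, 1.97 and 3.29 CPM in KO OIR, with a log2 fold change of -0.66 ± 0.61 (SE) and an adjusted p of 0.653. Both genes overlapped between the groups, and Pdgfrb stood on 5 to 24 counts a library.

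**Figure D2:**
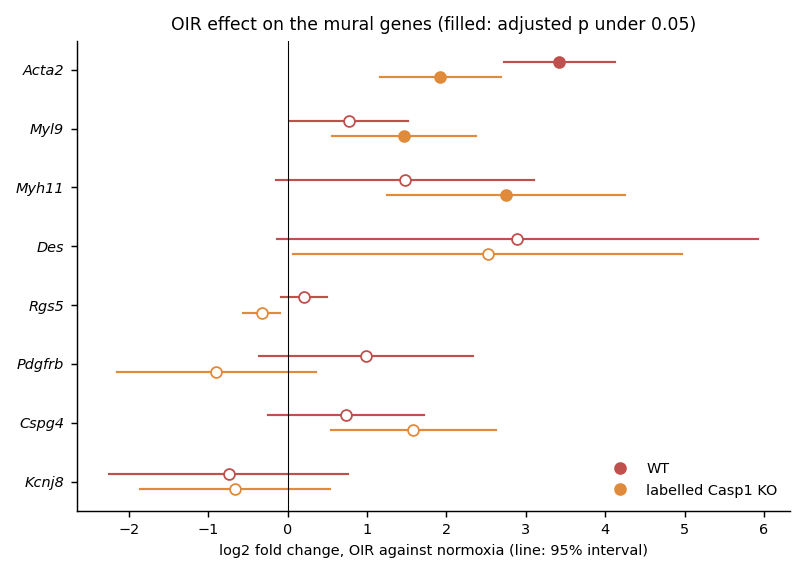
Log2 fold change of OIR against normoxia (x axis) for the 8 genes with more than 3 counts in a library of each group (y axis), in WT and in the libraries labelled Casp1 KO, each from 3 libraries against 3; lines are 95% intervals and filled points have an adjusted p under 0.05. Acta2 was filled in both, at 3.42 and 1.92, Myl9 (1.47) and Myh11 (2.75) in the libraries labelled Casp1 KO alone, and no difference between the genotypes was called.

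Over both genotypes together, with genotype as a covariate and 6 OIR against 6 normoxia libraries, Acta2, Myl9 and Myh11 were higher in OIR. These 3 of 9 genes compare with 4.89% of all 24484 genes called and 2.32% called as higher. The log2 fold changes were 2.69 ± 0.27 (SE) for Acta2 with an adjusted p of 8.63e-20, 1.08 ± 0.31 for Myl9 with 0.0121, and 2.06 ± 0.57 for Myh11 with 0.0104 (edgeR). Cspg4 followed at 1.13 ± 0.38 with an adjusted p of 0.0527, and Des at 2.71 ± 0.95 with 0.0786. DESeq2 called 5 of the 9, adding Cspg4 (0.0249) and Des (0.0375), and the same number was called by edgeR without WT OIR replicate 3. For these refits the share of all genes called is not given, so the added calls are not read as particular to the set. Rgs5 (-0.06 ± 0.10), Pdgfrb (0.06 ± 0.49) and Kcnj8 (-0.71 ± 0.49) had adjusted p-values of 0.832, 0.973 and 0.541. Without WT OIR replicate 1 the call of Myh11 was lost (adjusted p = 0.167), and without KO normoxia replicate 2 or KO OIR replicate 1 that of Myl9 (0.0655 and 0.0526).

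The next question was whether the response to OIR differed with genotype. In the interaction fit to all 12 libraries, edgeR called 0 of the 9 genes with counts, against 1.13% of all genes and 0.604% called as higher, and DESeq2 also called 0. At an unadjusted p under 0.05 there were 3 of 9, against 9.77% of all genes. Each of these had a more negative value in KO than in WT: Acta2 was positive in both, while Rgs5 and Pdgfrb were above 0 in WT and below 0 in KO. The difference of log2 fold changes, KO minus WT, was -1.52 ± 0.53 (SE) for Acta2 (unadjusted p = 0.00417, adjusted p = 0.173). It was -0.56 ± 0.19 for Rgs5 (unadjusted p = 0.00339, adjusted p = 0.152) and -1.91 ± 0.95 for Pdgfrb (unadjusted p = 0.0446, adjusted p = 0.495).

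These values leaned on single WT libraries. Without WT OIR replicate 3, which stood apart, 2 of the 9 were called, Acta2 at -1.90 (adjusted p = 0.0229) and Rgs5 at -0.79 (adjusted p = 0.00115). How many of all genes were called in that fit is not given here. Without WT normoxia replicate 3, which had the highest Acta2 of its group, Acta2 was called at -2.02 (adjusted p = 0.0347). Other omissions went the opposite way: without WT OIR replicate 1 the value of Acta2 was -1.14 (adjusted p = 0.561), and without WT OIR replicate 2 that of Rgs5 was -0.28 (adjusted p = 0.789).

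Between the genotypes within one condition, the comparisons share their control and treated libraries with those above. In normoxia edgeR called 0 of the 9, against 1.04% of all genes and 0.476% called as higher, DESeq2 called 0, and 2 had an unadjusted p under 0.05, against 8.63% of all genes. These were Myl9, lower in KO at -1.03 ± 0.51 on the log2 scale (unadjusted p = 0.0447, adjusted p = 0.559), and Rgs5, higher at 0.33 ± 0.11 (unadjusted p = 0.00369, adjusted p = 0.175). Pdgfrb in KO normoxia (3.10 to 6.97 CPM) lay above WT normoxia (1.78 to 2.23 CPM) without overlap, as did 5.91% of all genes, with a log2 fold change of 1.15 ± 0.67 and an adjusted p of 0.655.

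After OIR edgeR again called 0 of the 9, against 0.575% of all genes, DESeq2 called 0 but gave Acta2 no adjusted p, and Acta2 was the 1 gene at an unadjusted p under 0.05, against 8.36% of all genes. Acta2 averaged 25.3 ± 13.4 CPM (SD, n = 3) in WT OIR and 14.6 ± 4.96 CPM in KO OIR, giving a log2 difference of -0.79 ± 0.27 (SE, KO minus WT; unadjusted p = 0.00332, adjusted p = 0.192). The groups overlapped, and none of the 9 genes was higher in KO without overlap, against 5.41% of all genes. Without WT OIR replicate 3, Acta2 (-1.15, adjusted p = 0.00122) and Rgs5 (-0.45, adjusted p = 0.0344) were called as lower in KO, with no share of all genes given for that fit. Without WT OIR replicate 1, Acta2 had -0.43 (adjusted p = 0.869), and without WT OIR replicate 2, Rgs5 had 0.0352 (adjusted p = 0.973). The order of Acta2 over the 4 groups was thus WT normoxia (2.53 ± 1.78 CPM), KO normoxia (3.88 ± 0.42 CPM), KO OIR and WT OIR, in which neither the pair in normoxia (adjusted p = 0.758) nor the pair in OIR differed beyond the threshold.

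Ratios within a library do not depend on its depth. They were taken for Acta2 against the pericyte marker Rgs5, and for both genes against endothelial markers. The other contractile genes did not enter them. In WT normoxia there were 1.25, 2.14 and 4.17 Acta2 reads per 100 Rgs5 reads, and in WT OIR 32.97, 19.1 and 14.04. In KO normoxia the ratio was 2.89, 4.03 and 2.84, and in KO OIR 20.9, 15.9 and 9.51. Every OIR library lay above every normoxia library, WT OIR replicate 3 included. The counts of Acta2 and Rgs5 are those described above, so this separation is not a second result.

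The summed reads of 15 endothelial markers (among them Pecam1, Cdh5, Kdr, Cldn5 and Egfl7) gave a second yardstick. Single markers in the sum went both ways in WT OIR, with log2 fold changes of 1.42 for Pecam1 and -2.67 for Ly6c1, and 11 of 15 above 0. Cd93, an endothelial gene outside the sum, averaged 10.2 CPM in WT normoxia and 38.1 CPM in WT OIR. The ratio therefore does not correct Acta2 for vessel content. Acta2 reads per 100 endothelial reads were 0.471, 0.683 and 1.83 in WT normoxia and 11.8, 8.19 and 3.90 in WT OIR. They were 1.40, 1.64 and 1.27 in KO normoxia and 5.93, 5.62 and 3.19 in KO OIR. Here too no OIR library reached down to a normoxia library, again with the same Acta2 counts.

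Rgs5 against the same endothelial reads moved differently. In WT it gave 37.6, 31.9 and 43.8 reads per 100 endothelial reads in normoxia and 35.7, 42.96 and 27.8 in OIR, and the groups overlapped. In KO it gave 48.4, 40.6 and 44.6 in normoxia and 28.4, 35.4 and 33.5 in OIR, and all OIR libraries were lower. These ratios are given as values, without a test. The 6 contractile genes, Des included, summed to 8.10 to 17.2 CPM in WT normoxia, 21.4 to 63.9 CPM in WT OIR, 5.52 to 10.9 CPM in KO normoxia and 25.9 to 35.8 CPM in KO OIR.

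**Figure D3:**
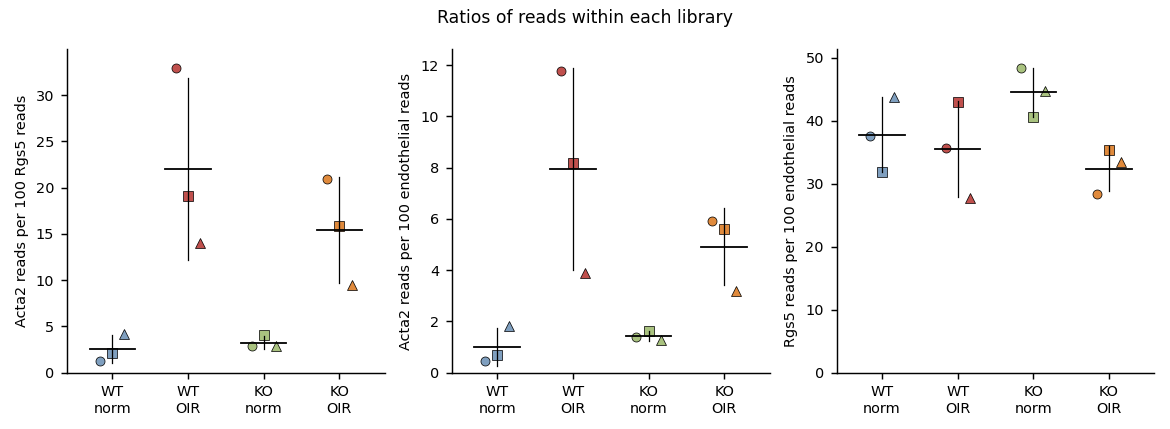
Acta2 reads per 100 Rgs5 reads, Acta2 reads per 100 reads of 15 endothelial markers, and Rgs5 reads per 100 of those endothelial reads (y axes, from 0) in the 4 groups (x axis; norm, normoxia; KO, labelled Casp1 KO). Circles, squares and triangles are replicates 1, 2 and 3, bars are means and lines are SD over 3 libraries; the Acta2 to Rgs5 ratio was 1.25 to 4.17 in normoxia and 9.51 to 32.97 in OIR.

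Of 20 other genes of the smooth muscle coat tested in WT, 4 were higher in OIR and 0 lower, against 1.58% of all genes called as higher, with a median log2 fold change of 0.29. They were Cald1, encoding the actin-binding caldesmon (0.71, adjusted p = 4.77e-04), Flna, the actin cross-linker filamin A (0.90, 0.0104), Mylk, myosin light chain kinase (0.41, 0.0218), and Tpm2, a tropomyosin (1.498, 0.0237). Cald1 read 64.3, 70.7 and 63.7 CPM in WT normoxia and 131, 122 and 74.5 CPM in WT OIR, with replicate 3 again the lowest of OIR. Tpm2 and Flna overlapped between the groups. The 20 genes summed to 1097 to 1245 CPM in WT normoxia, against 8.10 to 17.2 CPM for the contractile genes of the set, Des included. Which cells gave those reads was not tested.

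Of 19 tested in KO, 2 were higher and 1 lower, against 4.64% of all genes called in either direction, with a median of 0.31. Mylk (0.41, adjusted p = 3.47e-06) and Csrp1, a LIM-domain protein of smooth muscle (1.28, 0.00177), rose. Casq2, the calcium-binding calsequestrin 2 of the sarcoplasmic reticulum, fell by 2.83 on the log2 scale (0.00225), from 7.11, 8.13 and 4.11 CPM to 2.45, 0.219 and 0 CPM. Casq2 thus went the opposite way from the actin and myosin genes. Actg2, smooth muscle gamma actin, had 7 and 13 counts in WT OIR replicates 1 and 2 and 0 in all 10 other libraries.

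Other pericyte genes went both ways. In WT normoxia they summed to 601 to 642 CPM, against 93.3 to 115 CPM for Rgs5, Pdgfrb, Cspg4 and Kcnj8 together. Which cells gave those reads was not tested. Of 27 tested in WT, 3 were higher and 3 lower in OIR, against 3.88% of all genes called, with a median log2 fold change of 0.04, the same as over all genes. Ndufa4l2, a mitochondrial protein that is induced by low oxygen, rose by 2.73 ± 0.54 (SE, adjusted p = 5.45e-05), from 2.49, 1.47 and 0.217 CPM to 8.08, 9.39 and 11.4 CPM. Here WT OIR replicate 3 was the highest of its group, while WT normoxia replicate 3 lay under 3 counts, which make 0.650 CPM there. Mcam, the adhesion molecule CD146 of pericytes and endothelium, rose by 1.85 (0.0262), and Zic1, a transcription factor, by 1.01 (0.00135). Rgs4, a relative of Rgs5 that neurons also express, fell by 0.66 (3.12e-04). Gucy1a3, a subunit of the nitric oxide receptor, fell by 0.59 (0.00171), and Ebf1, a transcription factor, by 0.74 (0.00311). In KO neither of these last was called, with 0.05 for Gucy1a3 (0.871) and -0.22 for Ebf1 (0.560). Gucy1a3 was also lower in KO than in WT in normoxia, by 0.44 on the log2 scale (adjusted p = 0.00209, edgeR).

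Of 26 tested in KO, 2 were higher and 1 lower, against 4.64% of all genes, with a median of 0.12. Ndufa4l2 rose by 3.71 ± 0.63 (SE, adjusted p = 4.30e-07), from 0.912, 0.581 and 0.483 CPM to 11.3, 8.54 and 7.61 CPM. Its level in KO normoxia replicates 2 and 3 lay under 3 counts, which make 0.885 and 0.726 CPM there. Cox4i2, a cytochrome c oxidase subunit that pericytes express and low oxygen induces, rose by 1.18 (5.61e-09), and Rgs4 fell by 0.64 (7.99e-08). Abcc9, which encodes the sulfonylurea receptor that pairs with the Kcnj8 channel subunit, had log2 fold changes of -0.59 in WT and -0.12 in KO (adjusted p = 0.669 and 0.934). Notch3, the Notch receptor of mural cells, had 0.06 and 0.97 (0.982 and 0.560).

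Of 28 signals that recruit and stabilise mural cells, 1 was called in WT, as higher, near the 3.88% of all genes called there, and the median log2 fold change was 0.19. In KO 4 of 28 were called, all higher, against 4.64% of all genes, with a median of 0.12. S1pr3, a sphingosine 1-phosphate receptor, was called in both, at 0.88 in WT (adjusted p = 0.0488) and 1.22 in KO (0.00235). The WT call was lost with DESeq2, with filterByExpr and with the replicate number as a block, and the WT groups overlapped. In KO, Notch1 (1.02, 0.00534), Tgfb2, a transforming growth factor (0.50, 2.19e-04), and Cdh2, the N-cadherin that joins pericytes to endothelium (0.43, 0.0481), also rose. Tgfb2 and Cdh2 were lower in KO than in WT in normoxia, by 0.43 and 0.46 on the log2 scale (adjusted p = 0.00604 and 0.0481). The ligand Pdgfb had 0.50 ± 0.59 (SE) in WT and 0.47 ± 0.55 in KO, with adjusted p-values of 0.731 and 0.725. Of the angiopoietins, which act on the endothelial receptor Tek, Angpt1, made by pericytes, had -0.87 and -0.53 (0.573 and 0.725). Angpt2, made by endothelium, had 1.05 and 0.69 (0.343 and 0.502).

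Regulators and targets of SRF gave 1 lower and 0 higher of 17 in WT, against 3.88% of all genes called, with a median of -0.04. In KO they gave 2 higher and 0 lower of 17, against 4.64% of all genes, with a median of 0.32. The call in WT was Elk4, an SRF partner (fell by 1.15, adjusted p = 0.0233). In KO they were Ctgf, a matricellular growth factor (1.57, 2.22e-06), and Actb, cytoplasmic beta actin (0.19, 0.0300). Srf had -0.11 ± 0.23 (SE) in WT and 0.07 ± 0.22 in KO, and its smooth muscle coactivator Myocd -0.54 ± 0.66 and 0.36 ± 0.63, with adjusted p-values from 0.747 to 0.913.

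Relatives of the contractile genes outside the set did not move as 1 block. Tagln2, a transgelin of many cell types, rose in both genotypes, by 2.002 ± 0.26 (SE) in WT (adjusted p = 5.22e-12) and 1.70 ± 0.24 in KO (1.57e-10). It read 8.35, 8.19 and 11.5 CPM in WT normoxia and 47.3, 48.2 and 16.4 CPM in WT OIR, with replicate 3 again the lowest of OIR. Tagln3, a neuronal transgelin, fell by 0.53 in WT (0.0296) and 0.47 in KO (0.00595). Myl12a, the non-muscle relative of Myl9, rose by 0.92 in KO (2.34e-05), and Cnn3, the calponin of non-muscle cells, by 0.67 in KO (0.00148). The skeletal and cardiac actins Acta1 and Actc1 had log2 fold changes between -0.13 and 0.32, with adjusted p-values from 0.852 to 0.974, and neither was called in either genotype.

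**Figure D4:**
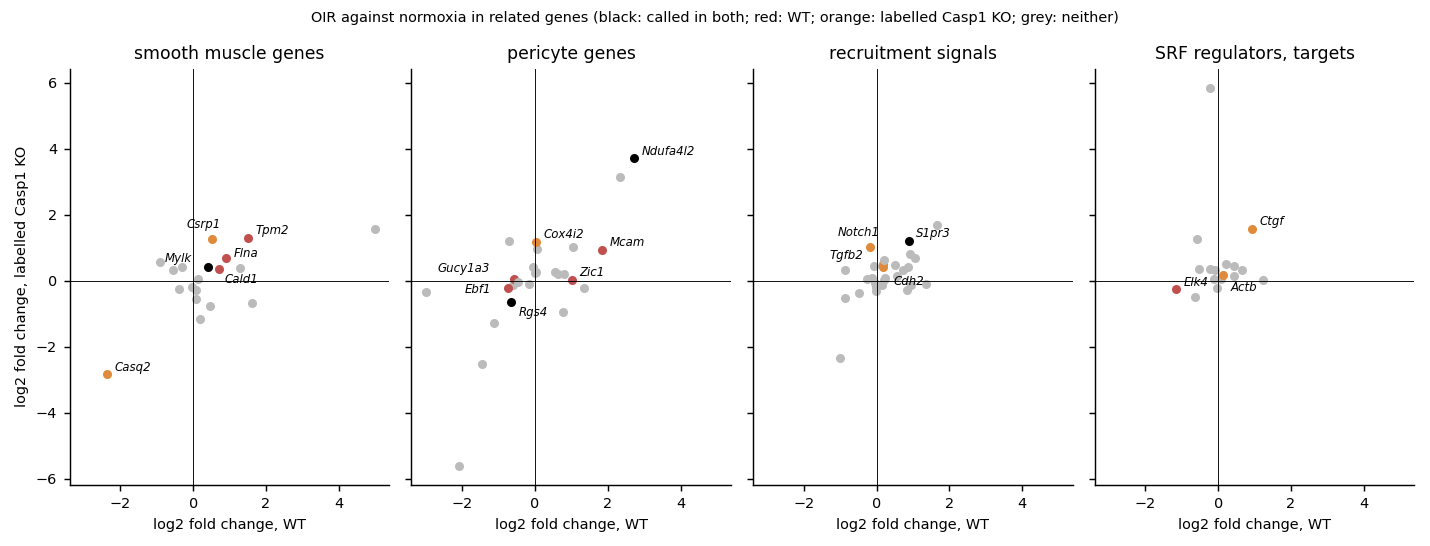
Log2 fold change of OIR against normoxia in WT (x axis) and in the libraries labelled Casp1 KO (y axis) for genes of 4 lists, 1 point a gene, with names for genes at an adjusted p under 0.05 in black (both), red (WT) or orange (labelled Casp1 KO). Ndufa4l2 (2.73 and 3.71), Mylk (0.41 and 0.41), S1pr3 (0.88 and 1.22) and Rgs4 (-0.66 and -0.64) were called in both, the WT call of S1pr3 in edgeR but not in DESeq2.

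Markers of neighbouring cells were measured beside these genes. The 15 endothelial markers summed to 250 to 264 CPM in WT normoxia, 270 to 351 CPM in WT OIR, 261 to 286 CPM in KO normoxia and 278 to 308 CPM in KO OIR. Of the 15, Pecam1 (1.42) and Vwf (3.82) were higher and Ly6c1 (-2.67) lower in WT OIR, and Flt1 (0.69) higher and Ly6c1 (-2.78) and Slco1a4 (-1.10) lower in KO OIR, on the log2 scale and past the threshold in edgeR. Of all genes, 3.88% were called in WT and 4.64% in KO. The sums of OIR lay above those of normoxia in WT and overlapped them in KO, and the part of endothelial RNA in the contractile result was not tested.

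Pigment cell markers, of the retinal pigment epithelium and iris, moved with OIR more clearly. The 9 of them summed to 863 to 871 CPM in WT normoxia, 967 to 1140 CPM in WT OIR, 968 to 1001 CPM in KO normoxia and 1498 to 1635 CPM in KO OIR. In WT, 2 of 9 were higher (Pmel and Dct) and 1 lower (Lrat), against 3.88% of all genes called. In KO 4 of 9 were higher (Rpe65, Ttr, Pmel and Dct), against 2.61% of all genes called as higher. The iris holds smooth muscle, and the part of these tissues in the contractile result was not tested.

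Fibroblast and scleral markers summed to 76.5 to 92.5 CPM in WT normoxia, 61.4 to 97.0 CPM in WT OIR, 78.4 to 91.5 CPM in KO normoxia and 106 to 116 CPM in KO OIR. Of the 10, 1 was called in KO (Dcn, 1.43 on the log2 scale), against 4.64% of all genes, and 3 had an unadjusted p under 0.05, against 13.6%. The KO values were above 0 for 9, with a median log2 fold change of 1.37. That median includes Lum, Dpt, Thbs2 and Kera, for which no fold is given, since in 1 or both groups no library exceeded 3 counts. The others besides Dcn had 0.25 (Col1a1), 0.34 (Col1a2), -1.14 (Col3a1), 0.33 (Pdgfra) and 1.31 (Ogn). In WT 0 of 9 tested were called, with 1 at an unadjusted p under 0.05 and 4 above 0. The WT median of -0.21 includes Lum and Dpt, for which the same holds there. Lum had at most 4 counts and Kera at most 3 in any library, and the part of these cells in the KO values was not tested. Skeletal muscle markers, a sign of eye muscle, summed to 24.8 to 33.2 CPM in WT normoxia, 23.4 to 33.1 CPM in WT OIR, 34.3 CPM at the median and 42.02 CPM at most in KO normoxia and 19.9 to 29.6 CPM in KO OIR. By edgeR 0 of 13 tested were called in WT and 0 of 14 in KO, against 3.88% and 4.64% of all genes. At an unadjusted p under 0.05 there were 0 in WT and 1 in KO, against 12.6% and 13.6% of all genes. The sums overlapped in WT, while in KO all OIR libraries lay under all normoxia libraries.

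**Figure D5:**
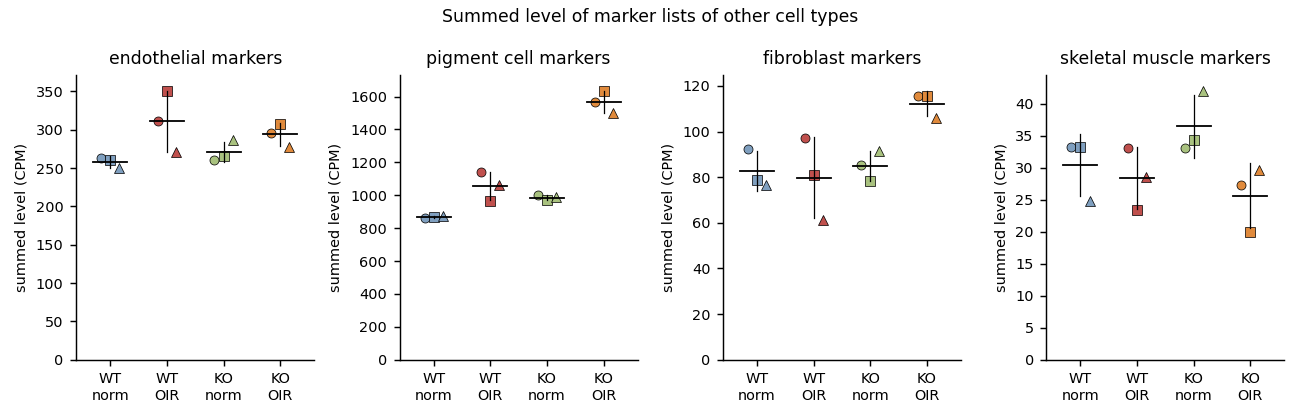
Summed level in CPM (y axes, from 0) of 15 endothelial, 9 pigment cell, 10 fibroblast and 14 skeletal muscle markers in the 4 groups (x axis; norm, normoxia; KO, labelled Casp1 KO). Circles, squares and triangles are replicates 1, 2 and 3, bars are means and lines are SD over 3 libraries; the pigment cell sum was 1498 to 1635 CPM in KO OIR, and the skeletal muscle sum ran from 19.9 to 42.02 CPM.

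Other genes were then ranked by how closely their level followed the mean profile of the set over the 12 libraries. Likeness was Pearson's r of log2 CPM with the mean standardised profile of the 8 genes of this set that averaged at least 1 CPM, among 11224 genes with a mean of at least 5 CPM. This mean profile did not follow each of the 8 alike: r with it was 0.848 for Des, 0.837 for Acta2, 0.778 for Myh11, 0.758 for Cspg4 and 0.533 for Myl9, but 0.405 for Rgs5, 0.00209 for Pdgfrb and -0.122 for Kcnj8. Each of the 8 is itself part of this mean, which raises its r. The 5 closest were Cd93 (r = 0.947), Cd34 (0.946), Cald1 (0.942), Egfl7 (0.941) and Tagln2 (0.923). Cd93 and Cd34 are surface proteins of endothelial cells, and Egfl7 is secreted by them. Cd93 averaged 10.2 ± 1.53 CPM (SD, n = 3) in WT normoxia, 38.1 ± 20.4 CPM in WT OIR, 13.8 ± 1.08 CPM in KO normoxia and 27.85 ± 1.998 CPM in KO OIR.

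For Acta2 alone the closest were Fn1, encoding fibronectin (r = 0.956), Tagln2 (0.943), Bmp4, a bone morphogenetic protein (0.927), Rhoj, a small GTPase of endothelium (0.925), and Myo10, an unconventional myosin (0.920). Within the set, r with Acta2 was 0.707 for Des, 0.619 for Myh11, 0.610 for Myl9 and 0.569 for Cspg4, against 0.172 for Rgs5, 0.100 for Pdgfrb and -0.399 for Kcnj8. The 12 points share their treatment, library and depth, so these coefficients describe the libraries and carry no test.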

How the data were processed

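Retinal RNA of 12 libraries was extracted with TRIzol and sequenced as QuantSeq 3' libraries in reads of 75 bases. The authors deposited counts of reads per gene symbol, without normalization, which according to the submitters' processing notes were made with STAR 2.7.5a and HTSeq 0.6.1 on mm10. The annotation, the strand setting and the treatment of reads matching several places are not given in the sources used here. No molecular identifiers are described, so limits for counts of 0 cover counting error only.

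Groups came from the sample labels. Counts were fitted in R 4.3.3 with edgeR 4.0.16 (TMM scaling, glmQLFit and glmQLFTest, prior count 0.125, without genes that had no count in those libraries) and adjusted by Benjamini-Hochberg over all genes tested, with a threshold of 0.05. Comparisons of 2 groups used their own 6 libraries, and the interaction and the effect over both genotypes used all 12. Levels are CPM on the TMM scale, and likeness used log2 CPM with a prior count of 2. The SE of a log2 fold change is its size divided by the root of the F statistic, and rests on the same spread pooled over genes. No fold is given where no library of a group exceeded 3 counts. The steps were tested on simulated data.

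The 10 genes and all lists were chosen with earlier results of these data known. Named beside them were, in each related list, up to 4 genes a direction with the smallest p among those called in either OIR comparison or the interaction, direct ligands, receptors and paralogs, and the 5 genes most alike. Markers of other cell types are named as lists. The CArG search with 5 of 6 core bases was added after that with 6 of 6. A check of retinal marker genes is not reported here. Promoter windows of Tagln, Myh11 and Pdgfrb were not used here. Alternatives were DESeq2 1.42.0, its size factors, filterByExpr, the replicate number as a block, 1 fit to all 12 libraries, and each library left out.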

Additional observations from a re-analysis of the deposited data

Results flagged for a closer look

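The interaction term of edgeR's quasi-likelihood test passed the threshold for 5 genes of the lists reported here, against 1.13% of all genes. They were 1 of 27 other pericyte genes, 1 of 15 endothelial markers, 2 of 9 pigment cell markers and 1 of 5 oligodendrocyte precursor markers. The set, the other smooth muscle genes, the recruitment signals and the SRF genes had 0. Cox4i2 had an interaction of 1.12 on the log2 scale, KO minus WT (adjusted p = 0.00702). It read 36.1, 31.3 and 39.1 CPM in WT normoxia, 49.96, 38.3 and 21.99 CPM in WT OIR, 25.5, 25.6 and 28.5 CPM in KO normoxia and 56.5, 60.0 and 62.1 CPM in KO OIR. All KO OIR libraries were above all others, while WT OIR replicate 3 was the lowest of its group. Emcn, the endothelial sialomucin endomucin, passed with an adjusted p of 0.0436, and no fold is given since no KO OIR library exceeded 3 counts. It had 1, 20 and 5 counts in WT normoxia, 26, 29 and 2 in WT OIR, 15, 14 and 4 in KO normoxia and 2, 3 and 1 in KO OIR. Rpe65, the visual cycle isomerase of the pigment epithelium, had 0.86 (adjusted p = 0.000700), and Lrat, which esterifies retinol there, had 1.22 (adjusted p = 0.0154). Olig2, a transcription factor of the oligodendrocyte lineage, passed with an adjusted p of 0.0122, and no fold is given since WT OIR and KO normoxia were at 0 in every library. Its counts were 11, 98 and 15 in WT normoxia, 0, 0 and 0 in WT OIR, 0, 0 and 0 in KO normoxia, and 0, 4 and 0 in KO OIR.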

How the results depend on the processing

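Of 594 fold changes of single genes under an alternative, 541 kept their direction and their side of the threshold, 11 lost the call, 16 gained one and 26 changed sign. Of 76 counts of called genes of the set, 70 were within 1.5 times the reported count. Shares of all genes called are given for the main fits alone. Acta2 kept its call in WT, in KO and over both genotypes under every alternative run. For WT, filterByExpr gave 2 called smooth muscle genes in place of 4, 0 recruitment signals and 0 SRF genes in place of 1 each, and 1 endothelial marker in place of 3. DESeq2 gave 0 recruitment signals, 0 SRF genes and 1 endothelial marker, and the fit to all 12 libraries 2 SRF genes. For KO, DESeq2's size factors gave 1 SRF gene in place of 2, and DESeq2 0 endothelial markers in place of 3. Over both genotypes DESeq2 called 5 of the 10 genes in place of 3.

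Replicate numbers did not pair the libraries: deviations of libraries with the same number correlated at -0.03 to 0.03 over 14287 genes. With the replicate number as a block, the genes of the set called numbered 1 in WT, 3 in KO and 4 over both genotypes, and recruitment signals called in WT 0 in place of 1.

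With each library left out, the set's called genes ranged from 1 to 2 in WT, 2 to 3 in KO, 0 to 2 between genotypes in OIR, 0 to 2 for the interaction and 2 to 5 over both genotypes. In WT, called smooth muscle genes ranged from 1 to 5, recruitment signals from 0 to 2, SRF genes from 1 to 3, endothelial markers from 1 to 5 and pericyte genes from 4 to 6. In KO they ranged from 3 to 5, 2 to 3, 1 to 2, 1 to 2 and 3 to 3. Without WT OIR replicate 3 the set had 2 calls in WT, between genotypes in OIR and for the interaction. Signs changed for log2 fold changes near 0: Rgs5 in WT (-0.0664 to 0.43), Des between genotypes in normoxia (-0.81 to 1.07), Rgs5 (-0.45 to 0.0352), Cspg4 (-0.0528 to 0.44) and Des (-0.36 to 0.82) between genotypes in OIR, Des (-0.93 to 0.98) and Kcnj8 (-0.39 to 0.72) for the interaction, and Rgs5 (-0.22 to 0.0165) and Pdgfrb (-0.13 to 0.33) over both genotypes. The cause was not tested. At these depths Cnn1, Des and Myh11 had 0 counts in at least 1 library.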
